A study of Mus musculus with 4 samples.

Results

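The genes described here encode 9 homeodomain proteins of the TALE class in mouse embryonic stem (ES) cells, the pluripotent cells that can be grown from an early embryo. They are Pknox1 and Pknox2, which encode Prep1 and Prep2, with Pbx2, Pbx3, Pbx4, Meis1, Meis2, Meis3 and Tgif1. They were chosen by symbol, with no threshold on their values, and are 9 of the 22718 genes in the expression tables. RNA-seq was done on 1 C57BL/6 ES line that was wild type and on 1 C57BL/6 ES line labelled Prep1-/- (KO2, whose library is named the KO2 library below), both kept on gelatin with leukemia inhibitory factor, with no other treatment named. Each genotype has 1 library from 1 line, so genotype, line and library cannot be told apart and no test between genotypes is possible. The sites bound by Prep1 come from ChIP-seq of a wild type ES line, R1 by the protocol although the strain is labelled C57BL/6, with 1 immunoprecipitation and 1 input DNA. The question was which partners, paralogs and competitors of Prep1 ES cells express, and how their RNA differs where Prep1 is deleted.

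TALE proteins carry an insertion of a few amino acids in a loop of the homeodomain. Prep and Meis proteins bind Pbx proteins through their amino-terminal regions, and the dimers bind DNA with more affinity than either protein alone. Because Prep and Meis use the same surface of Pbx, they can compete for it, while Tgif proteins are co-repressors known for their part in Smad signalling and can bind DNA through their own homeodomain. Pbx proteins also form complexes with Hox proteins.

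A sequence found in many Prep1 peaks is printed first, since several of the 9 genes have it close to their own starts. In the capitals below, TGANTGACAG (the decamer, N being any base) was searched on both strands of the mm9 genome, and it is the composite of a Pbx and a Prep half-site. It was in 950 of 3902 Prep1 peaks, or 24.3%. This exact string is stricter than the decameric motif of the paper, which was scored with some bases free to vary and reported in most of the peaks. Each window has 30 bases and is written on the strand of its gene, with the decamer or its reverse complement in capitals.
Pknox1, first intron, chr17:31701829-31701858, plus strand: cccaggtaagCTGTCACTCAaccgctccgc
Pknox2, first intron, chr9:36954801-36954830, minus strand: atcaggtaagCTGTCATTCAtttccatgtc
Meis1, UTR, chr11:18918612-18918641, minus strand: acctcgcctgTGATTGACAGctggagtggc
Meis2, UTR, chr2:115890990-115891019, minus strand: ttccgggcttTGATTGACAGctggagtggc
Meis3, upstream of the start, chr7:16759980-16760009, plus strand: tcttggggttTGACTGACAGcttttgtctg

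All 9 genes were expressed in both libraries, with RPKM (reads divided by gene length and library size) above 1. Relative to wild type, 4 of them were lower in the KO2 library (Pbx4, Meis1, Meis2 and Meis3) and 1 was higher (Pknox2). The ratio compared is the RPKM of the KO2 library over that of wild type (KO/WT). A gene counts as lower if its ratio is under 0.7 and its wild type RPKM exceeds 1, and as higher if its ratio is over 1.5 and its KO2 RPKM exceeds 1. By the same limits 13.8% of all genes expressed in wild type were lower and 7.2% of those expressed in the KO2 library were higher. The median ratio of the 9 genes was 0.736 (log2 -0.44), beside 0.955 (log2 -0.07) for the 13218 genes past an RPKM of 1 in each library. Intervals of a ratio are exact (Clopper-Pearson) binomial 95% intervals from the read counts, and intervals of a level are exact Poisson 95% intervals. They cover counting error only, and not the spread between lines or cultures. By counting error alone, the interval lay below 1 for 7 of the 9 genes, above 1 for 1 gene and across 1 for 1 gene. The ratio itself lay below 1 for 58.8% of the 13218 genes past an RPKM of 1 in each library. How many of all genes have an interval below 1 was not counted.

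**Figure D1:**
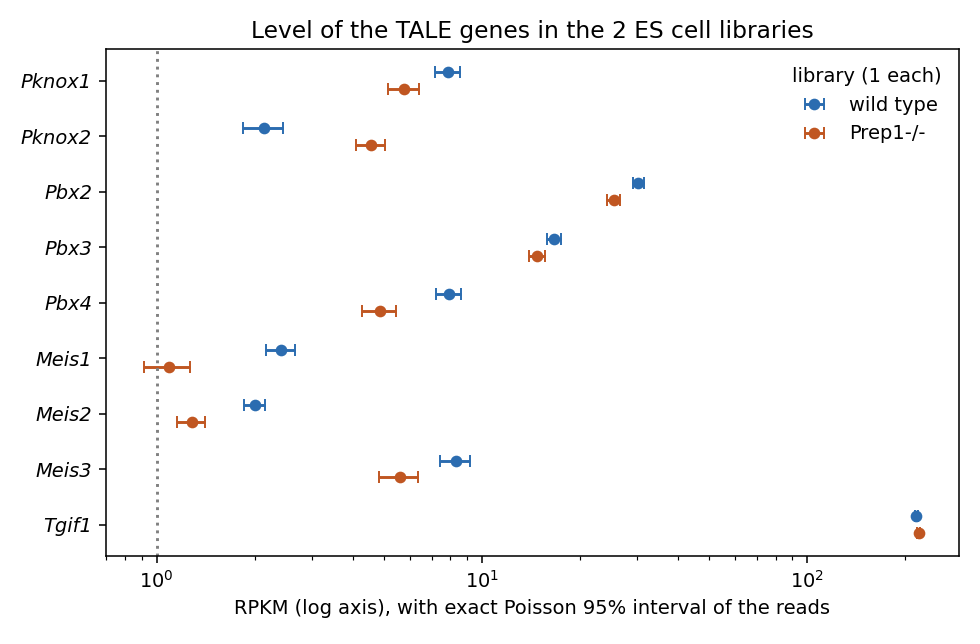
RPKM of the 9 TALE genes (horizontal log axis) in the wild type library (blue) and the KO2 library (orange), 1 library each, with points for the RPKM and bars for the exact Poisson 95% interval of the reads. The dotted line marks an RPKM of 1. Tgif1 sits far to the right at 217 and 220.0, and Pknox2 is the gene whose orange point lies well to the right of the blue one.

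The read counts summed over all genes were 29596294 in wild type and 25717811 in the KO2 library. Both sums exceed the number of reads per sample that the paper's methods state, and the reason was not tested. The intervals take each count as an independent read, and would be too narrow if reads were counted more than once. Markers of ES cells were present in both, with a summed RPKM of 1201 and 1469 over 8 genes, led in reads by Esrrb with 45815 and 54152. Of these 8, none was lower and 1 was higher, with a ratio above 1 for 7 and below 1 for 1. In bulk RNA, fewer cells of a type and less RNA per cell cannot be told apart. Summed levels of markers of other cell types also differed between the libraries. The summed RPKM of 4 mesoderm markers was 24.9 in wild type and 6.95 in the KO2 library (3 of 4 lower, T with 1091 and 242 reads). That of 6 primitive endoderm markers was 10.4 and 5.86 (3 of 6 lower, Gata4 with 1156 and 350 reads). Gata4 alone made 4.61 and 1.56 of these sums, and the ratio was below 1 for 5 of the 6 and above 1 for 1. For 5 trophectoderm markers it was 784 and 470 (4 of 5 lower, Krt18 with 17979 and 9564 reads). Krt18 alone made 539 and 321 of these sums. The sum of 4 neural markers was 24.7 and 18.8 (1 lower and 1 higher, Nes with 8200 and 5018 reads). Nes alone made 22.2 and 15.2 of it, while 2 of the 4 neural markers had a ratio above 1 and 2 below. Over 6 fibroblast markers the summed RPKM was 23.8 and 29.6 (none past either limit, Col1a1 with 976 and 1186 reads), and Lum had 0 reads in wild type. The part of these cell types in the differences of the TALE genes was not tested.

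Prep1 itself comes from Pknox1, at chr17:31701718-31744638 on the plus strand (mm9). Pknox1 had 505 reads and an RPKM of 7.85 (7.17 to 8.55) in wild type, and 332 reads and 5.78 (5.16 to 6.41) in the KO2 library. The targeted gene therefore kept reads in the line meant to lack it. Its ratio was 0.736 (0.638 to 0.846), not past the lower limit, and 13.9% of the genes expressed in both libraries had a lower one. Which exons the null allele lacks is not given in the sources used here, and the tables hold 1 value per gene, so these reads do not check the label. For the protein, the paper reports by immunoblot that Prep1 was lost in its null lines, KO2 among them.

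Pknox2 encodes Prep2, the paralog of Prep1, and spans chr9:36698570-36954899 on the minus strand. It had 199 reads in wild type and 380 in the KO2 library, or an RPKM of 2.14 (1.84 to 2.44) against 4.55 (4.10 to 5.02). The level was thus higher in the KO2 library, with a ratio of 2.13 (1.79 to 2.55) whose interval lies wholly above the limit of 1.5. Of the genes expressed in both libraries, 1.35% had a higher ratio. Pknox2 was the 1 gene of the 9 that was higher.

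The summed RPKM of the 2 Prep genes was 9.99 in wild type and 10.3 in the KO2 library, a ratio of 1.03 (0.931 to 1.15, a normal approximation of the counting error on the log scale). Pknox2 held 21.4% of that sum in wild type and 44.1% in the KO2 library. The rest of the KO2 sum is RNA of the targeted gene Pknox1, so the sum is no measure of Prep protein. Pknox1 exceeded Pknox2 by 3.67 times in wild type and by 1.27 times in the KO2 library, where their intervals do not overlap. This order depends on the length used for each gene. RPKM implies a length of 2178 bases for Pknox1, while its annotated transcript has 4213. With RPKM recomputed on the longest annotated transcript and the summed reads, Pknox1 was at 4.05 in wild type and 3.06 in the KO2 library, and Pknox2 at 1.93 and 4.24. On that scale Pknox2 stands above Pknox1 in the KO2 library, and the ratio of the summed Prep level, at the deposited scaling of the libraries, is 1.19.

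Pbx proteins are the partners that Prep and Meis share. Pbx2 spans chr17:34728211-34734345 on the plus strand and had 2564 reads in wild type and 1926 in the KO2 library. Its RPKM was 30.2 (29.0 to 31.4) and 25.4 (24.2 to 26.5), a ratio of 0.840 (0.791 to 0.891). Pbx3, at chr2:34026977-34228660 on the minus strand, had 1622 and 1285 reads. Its RPKM was 16.7 (15.9 to 17.5) and 14.8 (14.0 to 15.6), a ratio of 0.886 (0.823 to 0.954). Neither gene was past a limit, and 28.0% and 36.1% of the genes expressed in both libraries had a lower ratio than Pbx2 and Pbx3. These values are RNA only. By immunoblot of the null lines the paper reports much less Pbx2 protein and no effect on Pbx3, while their mRNA did not fall to a like extent. Pbx2 overlaps Gpsm3 on the same strand (857 and 816 reads), and reads of the overlap cannot be told apart.

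Pbx4 is a Pbx family member best known from the testis, and spans chr8:72356523-72397062 on the plus strand. It had 506 reads in wild type and 277 in the KO2 library, or an RPKM of 7.91 (7.22 to 8.62) and 4.85 (4.28 to 5.44). With a ratio of 0.613 (0.527 to 0.710) it was lower, but the interval reaches past 0.7. The 702 expressed genes of chromosome 8 had a median ratio of 0.779, and relative to that median the ratio of Pbx4 was 0.787 and no longer past the limit. The sum of the 3 Pbx genes was 54.8 in wild type and 45.0 in the KO2 library, a ratio of 0.821, and most of it came from Pbx2.

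Meis proteins can compete with Prep for Pbx, and all 3 Meis genes were lower in the KO2 library. Meis1, known for its role in blood stem cells and leukemia, spans chr11:18780433-18918961 on the minus strand. It had 378 reads in wild type and 152 in the KO2 library, or an RPKM of 2.41 (2.17 to 2.66) and 1.09 (0.916 to 1.27). Its ratio of 0.451 (0.370 to 0.544) was the lowest of the 9, and the whole interval lies below 0.7. Only 1.04% of the genes expressed in both libraries had a lower ratio, and the interval of the level in the KO2 library includes an RPKM of 1.

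Meis2 spans chr2:115688800-115891575 on the minus strand and is known from limb, heart and brain development. It had 685 reads in wild type and 392 in the KO2 library, or an RPKM of 2.00 (1.85 to 2.15) and 1.28 (1.15 to 1.41), with a ratio of 0.641 (0.564 to 0.725). Meis3, known from hindbrain patterning, spans chr7:16760729-16771853 on the plus strand. It had 350 and 210 reads, or an RPKM of 8.32 (7.45 to 9.21) and 5.59 (4.84 to 6.37), with a ratio of 0.672 (0.563 to 0.798). Unlike Meis1, both have intervals that reach past 0.7. Meis2 was not past the limit after adding 1 to both RPKM values (0.760), and Meis3 was not past it under 3 alternatives (0.704 to 0.728).

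The summed Meis level was 12.7 in wild type and 7.96 in the KO2 library, a ratio of 0.625, with Meis3 as the main part in both. The Meis sum was 0.232 of the sum of the 3 Pbx genes in wild type and 0.177 in the KO2 library, while the Prep sum was 0.182 and 0.229 of it. The Prep sum thus stood below the Meis sum in wild type and above it in the KO2 library on the deposited RPKM scale. The KO2 Prep sum counts the reads that the targeted gene Pknox1 kept, although the paper reports loss of Prep1 protein. Pknox2 alone, at 4.55 in the KO2 library, lay below the Meis sum. On the longest transcripts the summed RPKM of Prep was 5.98 in wild type and 7.30 in the KO2 library, and that of Meis 14.6 and 9.08, so that Prep stood below Meis in both. On the merged exons Prep was at 5.95 and 7.24 and Meis at 10.2 and 6.57, so that Prep stood above Meis in the KO2 library, and the order of the sums there depends on the length used.

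Tgif1, a co-repressor gene at chr17:71193545-71202886 on the minus strand, was by far the most expressed of the 9. It had 28794 reads in wild type and 26153 in the KO2 library, or an RPKM of 217 (214 to 219) and 220.0 (217 to 223), and ranked 344 and 306 among all genes. The ratio of 1.02 (0.999 to 1.03) has the narrowest interval of the 9 and includes 1. Under 3 other scalings of the libraries it was 1.05, 1.06 and 1.09, so its small distance from 1 depends on the scaling.

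**Figure D2:**
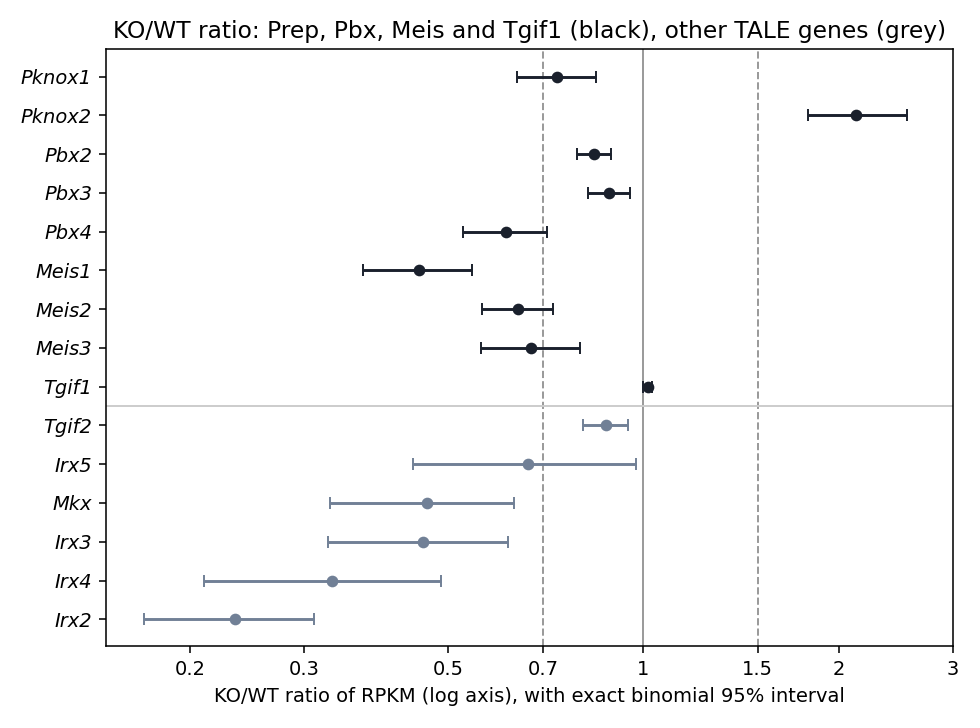
KO/WT ratio of RPKM (horizontal log axis) for the 9 genes (black) and for the other TALE genes with RPKM above 1 in either library (grey). Points are ratios between 1 library per genotype, bars are exact binomial 95% intervals, and vertical lines mark 0.7, 1 and 1.5. Meis1 at 0.451 and Pknox2 at 2.13 are the black points with bars wholly outside the limits, and the grey points all lie below 1, from 0.235 to 0.874.

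In wild type the order of the levels was Tgif1, Pbx2, Pbx3, Meis3, Pbx4, Pknox1, Meis1, Pknox2 and Meis2. Meis3, Pbx4 and Pknox1, at RPKM 7.85 to 8.32, had intervals that all overlap. Pknox2 overlapped both Meis1 and Meis2, while the intervals of Meis1 (2.17 to 2.66) and Meis2 (1.85 to 2.15) did not overlap. In the KO2 library the order was Tgif1, Pbx2, Pbx3, Pknox1, Meis3, Pbx4, Pknox2, Meis2 and Meis1. Pknox2 there lay next to Pbx4 (4.55 and 4.85, intervals overlapping) and apart from Meis2 and Meis1. The lower part of the order changes with gene length, since Meis2 has an implied length of 11586 bases and a longest transcript of 5501. Recomputed on the longest transcript, the wild type RPKM of Meis2 was 4.21, that of Meis1 3.73 and that of Pknox1 4.05.

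Of the other TALE genes listed, 6 of 8 had an RPKM above 1 in wild type and 1 in the KO2 library. Of the 8, 5 were lower and none was higher, and the median ratio of the 6 expressed ones was 0.460 (log2 -1.12). Among all genes expressed in wild type 13.8% were lower, and among those expressed in the KO2 library 7.2% were higher. The median ratio of all genes expressed in both was 0.955. Among the other TALE genes Tgif2, the paralog of Tgif1, was the exception in level and in ratio. It had 1449 and 1133 reads, an RPKM of 16.2 and 14.2, and a ratio of 0.874 (0.808 to 0.946). The Iroquois genes, which pattern the neural plate, had few reads. Irx2 had 266 and 55 reads (ratio 0.235), Irx4 had 107 and 31 (0.331), Irx3 had 141 and 57 (0.457) and Irx5 had 73 and 43 (0.665, interval 0.441 to 0.973). Irx3 and Irx5 lie on chromosome 8, whose median ratio is given with Pbx4. Mkx, a tendon gene, had 134 and 55 reads and a ratio of 0.464.

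Among 26 genes whose products are known as partners of Pbx, Prep or Tgif proteins, those of anterior Hox genes included, 15 had an RPKM above 1 in either library. Of these, 2 were lower and none was higher, beside 13.8% and 7.2% over all genes, with a median ratio of 0.891. The 2 lower genes were among 14 with an RPKM above 1 in wild type, a share near that over all genes. Hoxa3, an anterior Hox gene among those that were lower, had 311 and 115 reads, an RPKM of 1.52 and 0.631, and a ratio of 0.416 (0.331 to 0.514).

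The Prep1 ChIP-seq list was then read at the 9 genes. A peak lay in the gene or within 20 kb of it for 7 of the 9, beside 30.6% of annotated genes expressed in wild type. For 4 of them (Pknox1, Pknox2, Meis1 and Tgif1) a peak overlapped the window from 500 bases before to 100 bases after the start, beside 10.7%. Pbx4 and Meis3 had none within 20 kb. The enrichment of a peak is the authors' fold over input rounded to a whole number, which ran from 4 to 336 over the list with a median of 21. With 1 immunoprecipitation the peaks have no replicate check, and the methods state that the antibody also recognises Prep2 weakly.

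**Figure D3:**
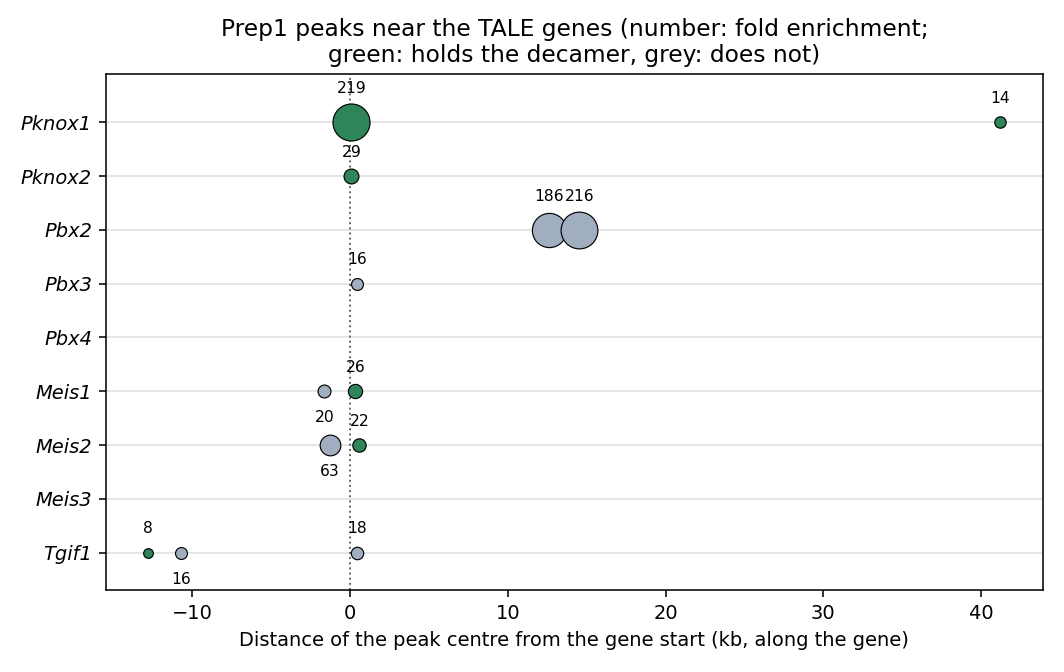
Prep1 peaks in or within 20 kb of each of the 9 genes, by the distance of the peak centre from the gene start (horizontal axis, kb along the gene). Point area and the number beside it give the fold enrichment over input, green peaks hold the decamer and grey peaks do not. The peaks at 219, 216 and 186 stand out in size, the first at the start of Pknox1 and the other 2 beyond the end of Pbx2.

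Pknox1 had the peak with the highest fold among the 9 genes, at its own start. Its centre lay 76 bases inside the gene, its enrichment was 219, and it ranked 44 of 3902. A weaker peak of Pknox1, with an enrichment of 14, lay in its last exon with its centre 41225 bases from the start. Pknox2 also had a peak at its start, with an enrichment of 29 and the centre 71 bases inside the gene. Both Prep genes thus had Prep1 peaks at their starts. The octamer TGATTNAT, known as a Meis1 target sequence, was in 8.41% of peaks. Among the peaks of the 9 genes it was in the start peak of Pknox1 and in the peak of Tgif1 whose centre lies at -12801 bases.

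The 2 peaks of enrichment 186 and 216 within 20 kb of Pbx2 had centres 12632 and 14524 bases from its start, beyond its end. The first covers the starts of Agpat1 and Rnf5 and the second lies in Agpat1, so nearness is all that ties them to Pbx2. Pbx3 had 1 peak in its first part, with an enrichment of 16 and its centre 422 bases inside, in an intron.

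Meis1 and Meis2 had a like arrangement of 2 peaks each. One lay inside the gene and had an enrichment of 26 (Meis1, centre 331 bases inside) or 22 (Meis2, 576 bases inside). The other lay upstream and had an enrichment of 20 (Meis1, centre at -1634 bases from the start) or 63 (Meis2, centre at -1266 bases). In each gene the inner peak holds the decamer and the upstream peak does not. Tgif1 had 3 peaks, with an enrichment of 18 near the start (centre 414 bases inside), 16 with the centre at -10747 bases and 8 with the centre at -12801 bases.

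The decamer was in 6 peaks of 5 of the 9 genes. Over all 950 peaks that hold it, the decamer lay a median of 39 bases from the peak centre, with 63.8% within 50 bases and 88.4% within 100. The distance was 49 bases in the start peak of Pknox1 and 13 in that of Pknox2, 4 in Meis1 and 5 in Meis2. It was 24 bases in the last exon of Pknox1 and 189 in the upstream peak of Tgif1. All but the Tgif1 decamer thus lay within 50 bases of the centre. These further windows show the remaining sites, again on the gene strand with the match in capitals. For the start peak of Tgif1, which has no decamer, the match is to the looser TGANTGNCAG, found in 35.3% of peaks.
Pknox1, last exon, chr17:31742953-31742982, plus strand: gtggctctcaCTGTCACTCActctccaggc
Tgif1, upstream, chr17:71215862-71215891, minus strand: ggatgctcgtCTGTCATTCActgctgactg
Tgif1, intron near the start, chr17:71202401-71202430, minus strand: gacccggctcCTGCCACTCActcggtccag

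**Figure D4:**
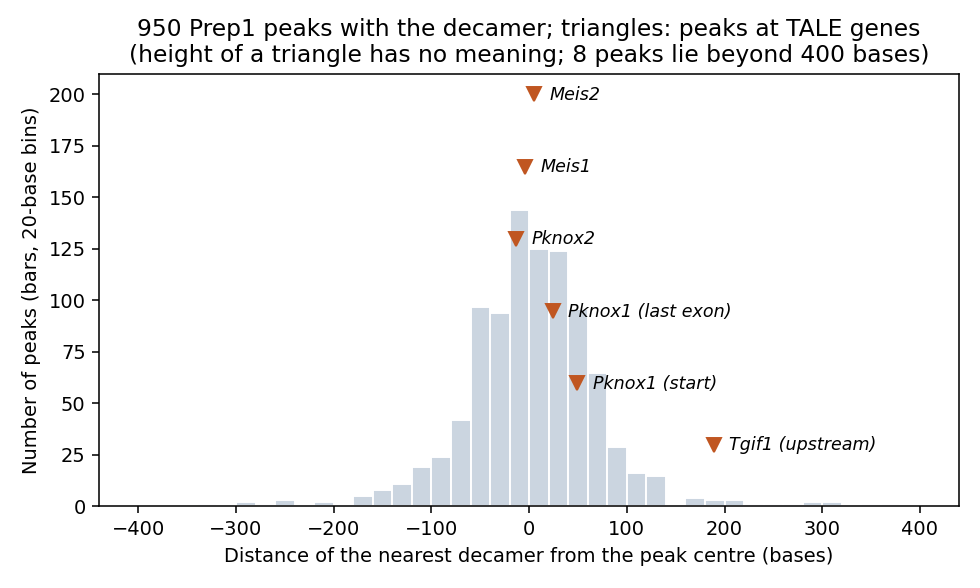
Number of Prep1 peaks (bars, 20-base bins) by the distance of the decamer nearest to the peak centre, in bases, for the 950 peaks that hold it, with 8 peaks beyond the axis. Triangles mark the peaks of the 9 genes, at heights without meaning. Those of Meis1, Meis2, Pknox2 and Pknox1 lie within 50 bases of the centre, and the upstream peak of Tgif1 lies at 189.

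The decamer was next counted at gene starts without regard to peaks. Within 1 kb of the start it was found in 659 of 17895 protein-coding genes, or 3.68%, and in 5 of the 9 genes (Pknox1, Pknox2, Meis1, Meis2 and Meis3). Of those 659 genes, 250 (37.9%) had it in a Prep1 peak, and of the 5 all but Meis3 did. The decamer of Meis3, at -735 bases from the start, is the one printed above without a peak.

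The 5 decamer windows at gene starts were compared with each other in place and in letters. In Pknox1 and Pknox2 the decamer lies on the strand opposite to the gene and begins after the first 5 bases of an intron, at 125 and 84 bases from the start. Their windows share 19 of 30 bases, 8 of them in the 10 bases on the side of the exon, which includes the splice donor. In Meis1 and Meis2 the decamer lies on the strand of the gene, at 335 and 571 bases from the start in the UTR. Their windows share 24 of 30 bases, including all 10 of the decamer and all 10 that follow it. Other pairs of the 5 windows, with the decamers set on the same strand, share 15 to 19 of 30 (19 in Meis2 and Meis3), and at least 9 of these are in the decamer, which the search fixed except for 1 base. A match of letters is a description and not a measured site.

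Set side by side, the genes with a decamer in a peak within 1 kb of the start had ratios on both sides of 1. Pknox2 was higher (2.13), Meis1 (0.451) and Meis2 (0.641) were lower, and Pknox1 had a ratio of 0.736. Pbx4 (0.613) and Meis3 (0.672), which have no peak within 20 kb, were also lower. Tgif1, with 3 peaks, had a ratio of 1.02.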

How the data were processed

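The authors deposited for each gene an unnormalized read count and an RPKM value. They sequenced polyA RNA as paired-end reads of 50 bp with a kit that does not keep strand, assigned them with RSEM to Ensembl genes on mm9 and used DESeq, with versions not given in the sources used here. Their RPKM uses the count plus 1. RPKM ratios are 1.12 times the ratio of counts plus 1, a factor that is the same for every gene. For 85 genes RPKM was not finite, and these were left out. ChIP reads of 36 bp were mapped with BWA, and the deposited peak score is the fold enrichment given by MACS, rounded.

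The 9 genes, the lists and the tests were chosen with earlier results of these data known, and all 9 are named. From the other TALE list, genes with RPKM above 1 in either library were named, from the partner list those past a limit, and from each marker list the gene with the most reads. Some genes of the TALE and partner groups are not reported here, and sums over the Prep, Pbx and Meis genes cover the named genes only. Coordinates and UTRs are from GENCODE M1, which held 21446 of the genes. Intervals were tested on simulated data drawn with counting error only, so that test does not cover the spread between lines or cultures. Python 3.11.15, numpy 2.4.6, pandas 2.3.3, scipy 1.17.1, pysam 0.24.0 and matplotlib 3.10.9 were used. Scalings, pseudocounts, filters and thresholds were varied, and gene lengths from the annotation were tried after seeing the data.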

Additional observations from a re-analysis of the deposited data

How the results depend on the processing

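Of the counts and ratios recomputed under alternatives, no ratio past a limit turned its direction. With each chromosome centred on its own median, the ratio of Pbx2 was 0.900, that of Pbx4 0.787 and that of Tgif1 1.09, and the number of the 9 genes that were lower was 2. Scaling by summed reads gave 1.05 for Tgif1, and setting the median ratio to 1 gave 1.06. With 1 added to both RPKM values the ratio was 1.77 for Pknox2, 0.612 for Meis1 and 0.760 for Meis2, with 2 genes lower. At limits of 0.5 and 2, 1 gene was lower. The annotated lengths, tried after seeing the data, gave a ratio of the summed Prep level of 1.19 (longest transcript) and 1.18 (merged exons). The cause of these shifts was not tested, apart from the lengths and limits, which act by construction. No paired analysis was possible because each genotype has 1 library, and for the same reason no library could be left out. Depth limits Meis1, whose interval in the KO2 library includes an RPKM of 1.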
